A study of Mus musculus with 12 samples.

Results

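The genes described here encode the mitochondrial respiratory chain and ATP synthase of mouse muscle satellite cells, the resident stem cells of skeletal muscle. The members were all measured genes with a symbol starting with Nduf, Uqcr, Atp5 or Cox4 to Cox8, together with Sdha, Sdhb, Sdhc and Sdhd. Each was read by a probe set that carried 1 gene symbol, the brightest where a gene had several. This gave 89 of the 19938 genes measured. Of these, 80 are known subunits: 6 core and 28 accessory subunits of complex I, 4 of complex II, 8 of complex III, 10 general subunits and 7 tissue isoforms of complex IV, and 17 of ATP synthase. The other members were 7 assembly factors of complex I (Ndufaf1 to Ndufaf7), Cox7a2l and Ndufa4l2. Cox7c and Ndufb4 were read only by probe sets that carried several symbols and were not analysed here.

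Complex I and complex II pass electrons from NADH and succinate to ubiquinone, complex III passes them to cytochrome c, and complex IV hands them to oxygen. Complexes I, III and IV pump protons across the inner mitochondrial membrane, and ATP synthase uses the returning protons to make ATP. Satellite cells are proliferative in the fetus and the growing juvenile and mostly quiescent in adult muscle, where they are known for few mitochondria and low respiration.

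Per the labels, satellite cells were sorted by fluorescence from heterozygous Pax7-ZsGreen mice of strain C57BL/6, so every group carries the same reporter of Pax7, a transcription factor that marks these cells. Fetal cells (E17.5) were taken from both forelimb and hindlimb muscle of 4 pooled mice, so fetal age and limb cannot be told apart. Hindlimb cells came from 6 adolescent mice at postnatal day 21, 8 adult mice of 2 to 3 months and 8 aged mice of over 1 year. Each stage has 3 arrays, 12 in all, and their number limits the precision. Separate animals for the replicates of a stage are not stated, so the p-values cover the spread among these arrays alone, and that spread may be technical. All levels below are log2 intensities as deposited, and differences are log2 differences with their standard error (SE). A gene rose or fell only where limma's Benjamini-Hochberg adjusted p over all 19938 genes was under 0.05. In sorted but bulk samples, fewer cells of a type and less RNA per cell cannot be told apart.

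The arrays of a stage were not equally alike. In every stage replicates 2 and 3 were closer to each other than to replicate 1: over the members their root mean square difference was 0.07 to 0.12, against 0.31 to 0.79 for pairs with replicate 1. The widest gap was in adults, where replicate 1 differed from replicates 2 and 3 by 0.79 and 0.78. The mean of 1210 olfactory and vomeronasal receptor probe sets, which muscle cells should not express, was raised on 3 arrays, at 4.47 and 4.50 for adult replicates 2 and 3 and at 4.31 for aged replicate 1, while elsewhere it ranged from 3.79 to 3.91. These 3 arrays also had the narrowest spread of levels over genes, with an SD of 1.74, 1.73 and 1.84 against 1.96 to 2.02. Adult replicate 1 is therefore shown apart, and counts are also given without it or without the 3 arrays with raised receptor signal. The part of these array differences in the results was not tested. The 15 satellite cell markers averaged 9.06 to 9.14 on fetal arrays and 9.95 to 10.3 on all later arrays, and Pax7 ranged from 10.36 to 11.71.

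**Figure D1:**
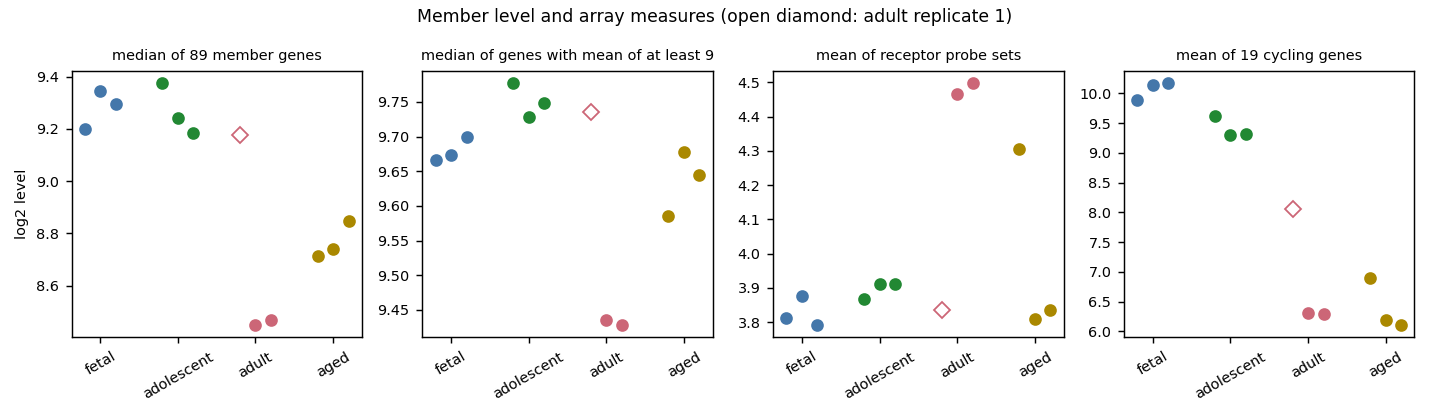
Each point is 1 array, in the order fetal, adolescent, adult and aged along the x axis, and each y axis is a log2 level: the median of the 89 member genes, the median of all genes with a mean of at least 9, the mean of the receptor probe sets, and the mean of 19 cycling genes. The open diamond is adult replicate 1, with a member median of 9.18 against 8.45 and 8.47 on adult replicates 2 and 3.

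Most members stood at like levels in fetal and adolescent cells and lower in adult and aged cells. The median over the 89 members was 9.20, 9.34 and 9.29 on the fetal arrays and 9.38, 9.24 and 9.18 on the adolescent arrays. It was 9.18 on adult replicate 1, 8.45 and 8.47 on adult replicates 2 and 3, and 8.71, 8.74 and 8.85 on the aged arrays. Thus every aged array and adult replicates 2 and 3 lay below every fetal and adolescent array, while adult replicate 1 was level with adolescent replicate 3. With each member centred on its own mean over the arrays, adult replicate 1 had a median of 0.17. That was inside the adolescent range of 0.15 to 0.29. By limma's F-test 48 members differed among the 4 stages, and 79 did so without adult replicate 1, beside 41.6% and 71.2% of all genes. Of the 5125 genes with a mean of at least 8, 3161 and 4286 did so. Of the 2161 with a mean of at least 9, 1349 and 1793 did. With all arrays the members thus did not stand out from other bright genes by the F-test. Complex II and the ATP synthase stalk had all 4 of their members past that test, complex III had 2 of 8 and the tissue isoforms of complex IV had 1 of 7. Without adult replicate 1, complex III had 8 of 8 and the tissue isoforms had 4 of 7, so the contrast with complex III hung on that array.

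**Figure D2:**
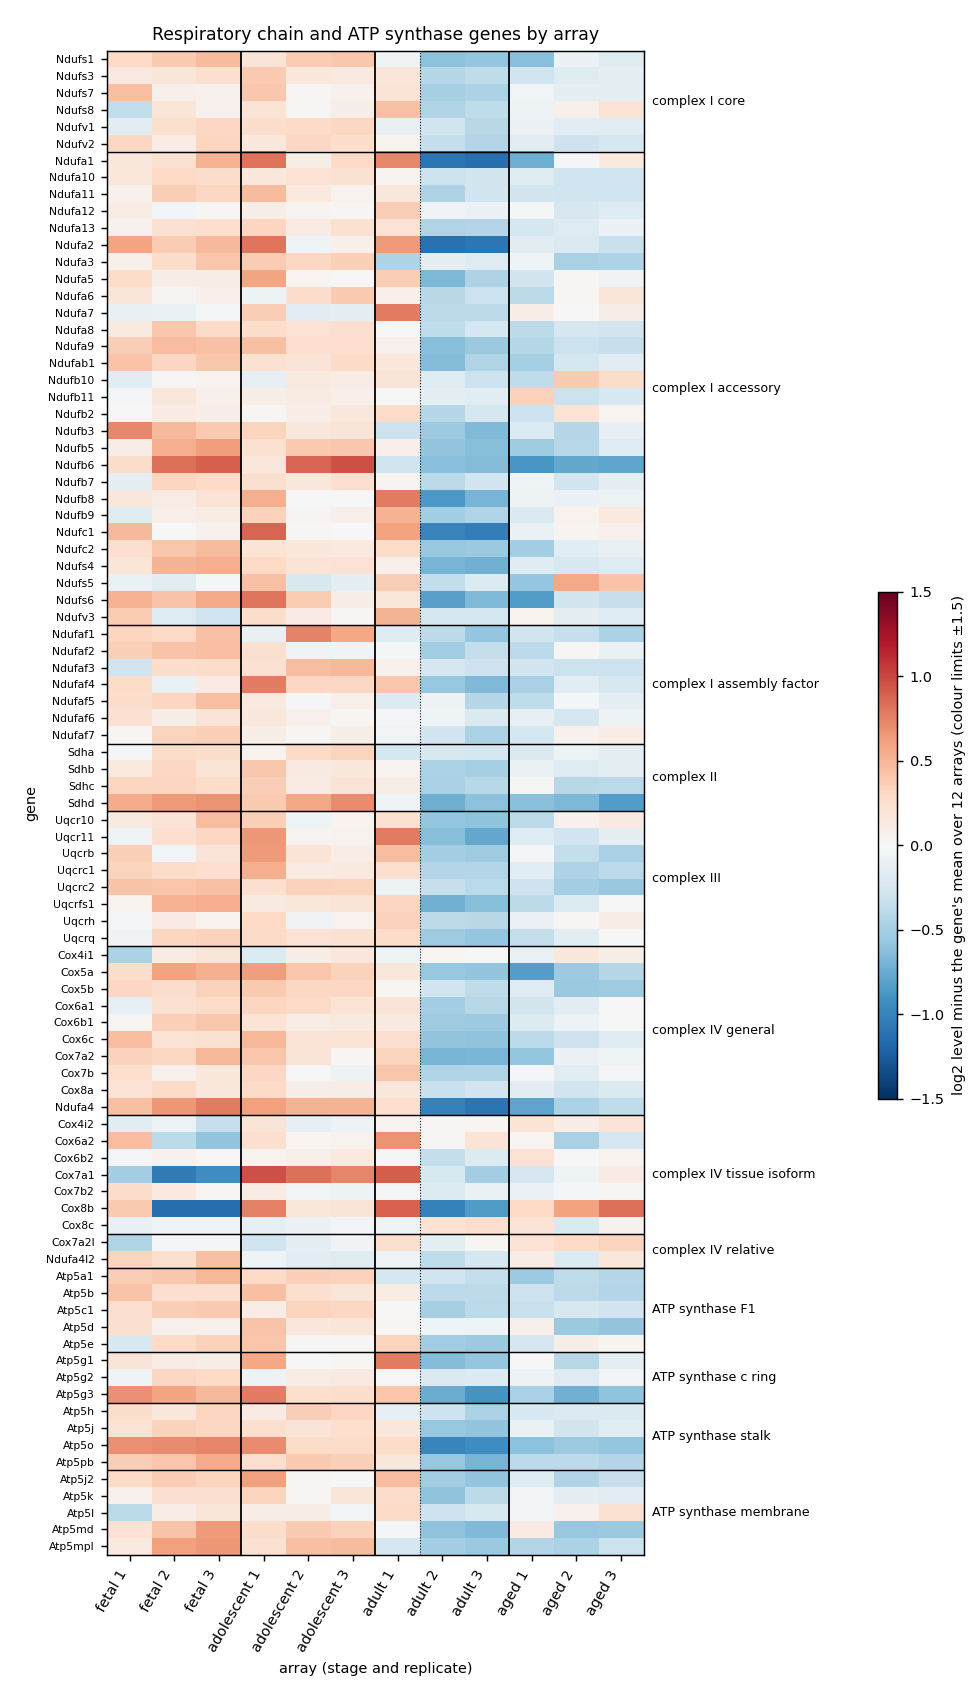
Rows are the 89 member genes grouped by role and columns are the 12 arrays, with fetal arrays at the left and aged arrays at the right; colour is the log2 level minus the gene's mean over the arrays, limited at 1.5 in either direction. Adult replicates 2 and 3, right of the dotted line, are blue for most genes, adult replicate 1 is mostly not, and the muscle isoforms Cox7a1 and Cox8b have a pattern of their own.

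Adolescent cells differed little from fetal cells in these genes. The median log2 difference over the members was 0.00, with 1 member risen and 1 fallen, where 10.1% of all genes rose and 8.68% fell. The member that rose was Cox7a1, the heart and muscle isoform of a small complex IV subunit. The member that fell was Ndufa4l2, a relative of Ndufa4 known as induced by low oxygen. Ndufa4l2 read 6.09, 6.01 and 5.97 in adolescent cells, against 6.49, 6.40 and 6.61 in fetal cells. The groups were apart, and the log2 difference was -0.48 ± 0.12 (SE, adjusted p = 0.0135). That call was lost without fetal replicate 3, adolescent replicate 2 or adolescent replicate 3.

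In adult cells 36 members fell and 0 rose against adolescent cells, where 15.2% of all genes fell and 4.56% rose. The median log2 difference was -0.47 over the members and 0.03 over all genes, and 84 of 89 members had a negative value. The adult and adolescent arrays did not overlap for 39 members, all lower in adult cells, where 22.4% of all genes were lower without overlap. Among the 5125 genes with a mean of at least 8, 1458 fell and 2007 were lower without overlap. Among the 2161 with a mean of at least 9 these counts were 616 and 845. The count of 39 is thus not read as particular to the members. Bright genes as a whole were lower as well: the median was -0.24 over the 5125 genes with a mean of at least 8 and -0.21 over the 2161 genes with a mean of at least 9. Without adult replicate 1, 72 members fell and 1 rose, beside 28.6% and 25.4% of all genes, and the median was -0.68. In that fit 2848 of the 5125 and 1161 of the 2161 brighter genes fell, with medians of -0.34 and -0.31. Without adult replicate 2 or replicate 3, 14 fell in each case, beside 7.49% and 7.78% of all genes, and without any single adolescent array 21 did. With the 3 arrays of raised receptor signal left out, adult replicate 1 alone stood for the adults, assumed to vary like the other groups: 4 members fell, 1 rose and the median was -0.05, where 5.09% of all genes fell and 2.86% rose. Of the 36 calls, 12 held with each of the 6 arrays left out in turn. With replicates 2 and 3 of each stage averaged first, which leaves 2 values a stage, 0 members passed, where 1.24% of all genes fell and 0.381% rose.

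In aged cells 36 members fell and 1 rose against adolescent cells, where 11.5% of all genes fell and 8.08% rose. The median log2 difference was -0.42 over the members and -0.01 over all genes, with 78 of 89 members negative. For 58 members all aged arrays lay below all adolescent arrays, as for 22.6% of all genes. Among the 5125 genes with a mean of at least 8, 1117 fell and 2052 were lower without overlap. Among the 2161 with a mean of at least 9 these counts were 523 and 925. The median was -0.11 over genes with a mean of at least 8 and -0.12 over those with a mean of at least 9. Aged replicates 2 and 3, with a receptor mean of 3.81 and 3.84, lay below every adolescent array for 68 and 65 members, and aged replicate 1 did so for 75. With the 3 arrays of raised receptor signal left out 49 members fell and 1 rose, beside 17.4% and 14.5% of all genes. Leaving out adolescent replicate 1, 2 or 3 or aged replicate 2 or 3 gave 22, 22, 24, 21 and 22 members fallen. Of the 36 falls 17 held with each of the 6 arrays left out in turn, and with replicates 2 and 3 averaged 5 members fell, beside 3.43% of all genes. The adult arrays enter this comparison through the shared estimate of the spread: without adult replicate 1, 52 members fell, beside 16.4% of all genes, and 1 rose. In a fit of the aged and adolescent arrays alone 47 members fell and 1 rose, with no share of all genes given for that fit. The adult and aged comparisons share the adolescent arrays: 32 members fell in both, 88.9% of each 36. The same overlap over all genes is not given, so this share is not read as particular to the members.

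**Figure D3:**
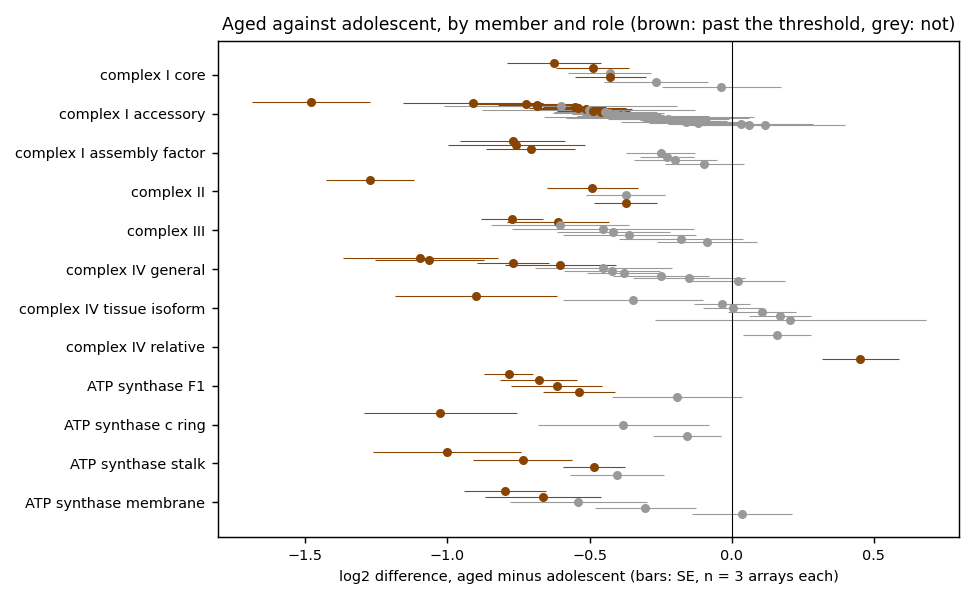
Each point is 1 member gene and the x axis is the log2 difference, aged minus adolescent, with its SE as a bar; rows are the roles. Brown points passed the threshold: 36 lie left of 0 and Cox7a2l, among the complex IV relatives, is the one to the right.

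Against fetal cells, adult cells had 49 members lower and 1 higher past the threshold, where 23.4% of all genes fell and 19.1% rose. The median log2 difference was -0.49 over the members and 0.09 over all genes. Of the 5125 genes with a mean of at least 8, 2003 fell and 916 rose, and the median was -0.21. Without adult replicate 1, 73 fell and 2 rose, beside 29.9% and 35.1% of all genes. Without adult replicate 2 or 3, 32 and 31 fell, beside 18.3% and 18.4% of all genes. With the 3 arrays of raised receptor signal left out 14 fell and 7 rose, beside 16.1% and 13.4% of all genes. With each of the 6 arrays left out in turn, 31 of the 49 falls held, and with replicates 2 and 3 averaged 7 members fell, beside 11.2% of all genes.

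**Figure D4:**
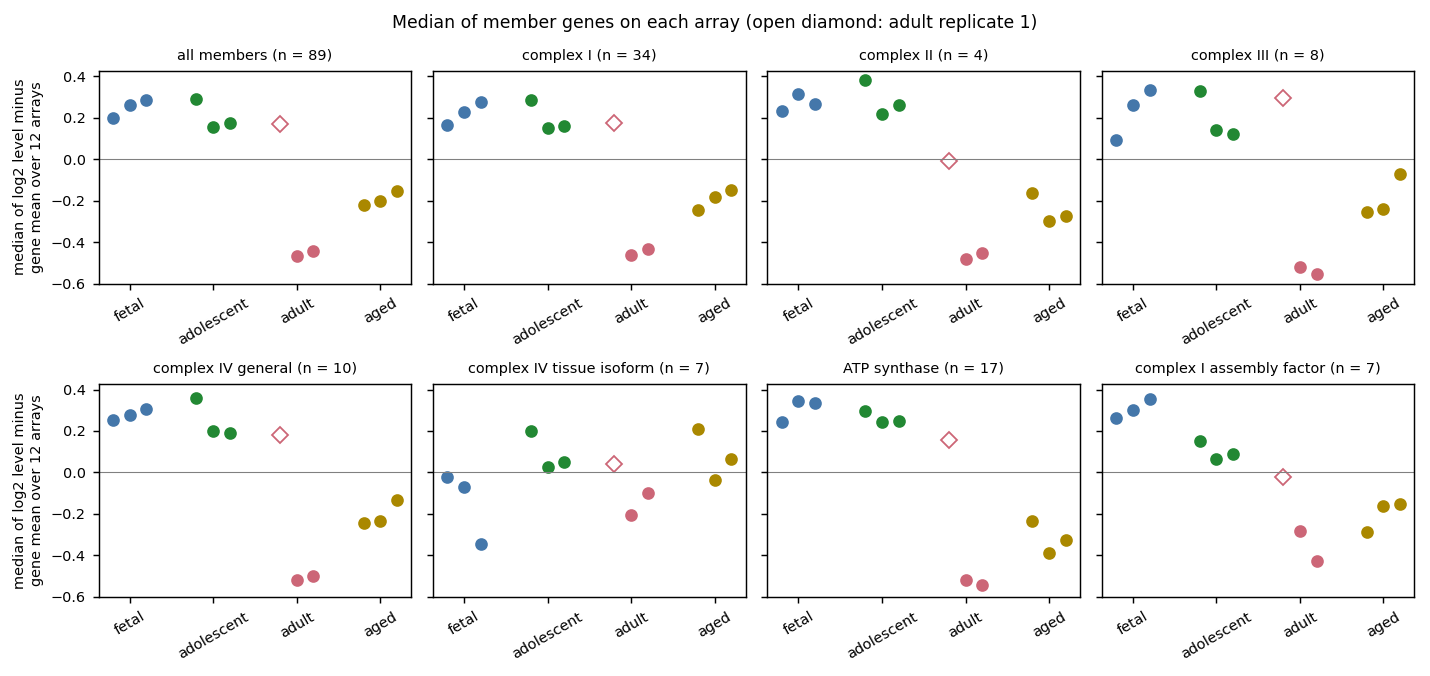
Each point is 1 array, in the order fetal, adolescent, adult and aged along the x axis; the y axis is the median over the members named above each panel of the log2 level minus the gene's mean over 12 arrays. The open diamond is adult replicate 1, which stands at -0.01 for complex II and at 0.30 for complex III, while adult replicates 2 and 3 stand at -0.48 and -0.45 and at -0.52 and -0.55.

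Complex I is built on core subunits that carry the flavin and the iron-sulfur clusters. Of the 6 core members measured, 3 fell in aged and 3 in adult cells against adolescent cells, and all 6 were negative in both comparisons. Ndufs1, which holds several of the iron-sulfur clusters, read 8.09, 8.63 and 8.53 in aged cells, against 8.91, 9.10 and 9.12 in adolescent cells. No aged array reached an adolescent one, and the log2 difference was -0.62 ± 0.17 (adjusted p = 0.0176), a call lost without adolescent replicate 2, adolescent replicate 3 or aged replicate 1. In adult cells Ndufs1 read 8.66 on replicate 1 and 8.11 and 8.13 on replicates 2 and 3, below every adolescent array on each. Its adult log2 difference of -0.74 ± 0.17 (adjusted p = 0.00838) held with each array left out. Ndufv1, which binds NADH and the flavin, fell by 0.57 ± 0.12 in adult cells and by 0.43 ± 0.12 in aged cells against adolescent cells. The aged call of Ndufv1 was lost without any of 5 single arrays, all but aged replicate 1.

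Among the 28 accessory subunits of complex I, 11 fell in adult and 10 in aged cells against adolescent cells. Ndufb6, an accessory subunit of the membrane arm, had the largest fall of all members in both comparisons. It read 9.10, 9.20 and 9.18 in aged cells, against 10.14, 10.84 and 10.93 in adolescent cells. In adult cells it read 9.67 on replicate 1 and 9.35 and 9.32 on replicates 2 and 3, while fetal cells had 10.23, 10.79 and 10.86. No adult or aged array reached the lowest fetal or adolescent array. The aged log2 difference was -1.48 ± 0.21 (2.79-fold lower, adjusted p = 0.000297) and the adult one -1.19 ± 0.21 (2.29-fold lower, adjusted p = 0.00212), and both held with each array left out.

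Ndufs6, an accessory subunit near the NADH module, read 7.08, 7.64 and 7.57 in aged cells, against 8.72, 8.30 and 8.01 in adolescent cells. The groups did not overlap, although the adolescent arrays spread widely. The log2 difference was -0.91 ± 0.25 (adjusted p = 0.0196), and it was lost without adolescent replicate 1, adolescent replicate 2 or aged replicate 1. In adult cells Ndufs6 read 8.09 on replicate 1, inside the adolescent range, and 7.11 and 7.25 on replicates 2 and 3, for a log2 difference of -0.86 ± 0.25 (adjusted p = 0.0286) that was lost without 4 of the 6 arrays in turn. Ndufb3, Ndufa2 and Ndufs4, further accessory subunits, were among the largest falls in adult against fetal cells, at -1.04 ± 0.13, -1.01 ± 0.37 and -0.86 ± 0.18. Ndufb3 read 6.34, 6.12 and 6.00 in adult cells, against 7.39, 7.15 and 7.06 in fetal cells, and every adult array, replicate 1 included, was lower. Ndufa2 read 9.45 on adult replicate 1, above every fetal array, and 7.69 and 7.72 on adult replicates 2 and 3. The adult fall of Ndufa2 thus rested on replicates 2 and 3, and it was lost without either of them or without any fetal array.

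Assembly factors build complex I and are not part of the finished enzyme. Of the 7 Ndufaf genes, 3 fell in adult and 3 in aged cells against adolescent cells, and all 7 were negative in both. Ndufaf1, which helps to assemble the membrane arm, read 7.91, 7.70 and 7.51 in adult cells, against 7.99, 8.84 and 8.67 in adolescent cells. The groups did not overlap, but adult replicate 1 and adolescent replicate 1 lay close together. The log2 difference was -0.79 ± 0.18 (adjusted p = 0.0104), lost without adult replicate 3.

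Complex II consists of the products of Sdha, Sdhb, Sdhc and Sdhd and is the one complex here that is also an enzyme of the citric acid cycle. All 4 genes fell in adult against adolescent cells, all 4 fell in adult against fetal cells, and Sdha, Sdhc and Sdhd fell in aged against adolescent cells. Sdhd, a membrane anchor, read 8.16, 8.12 and 7.96 in aged cells, against 9.19, 9.37 and 9.50 in adolescent cells. In adult cells it read 8.73 on replicate 1 and 8.06 and 8.18 on replicates 2 and 3, and fetal cells had 9.35, 9.44 and 9.46. All adult and aged arrays were below all fetal and adolescent arrays. The aged log2 difference was -1.27 ± 0.15 (2.42-fold lower, adjusted p = 0.000104) and the adult one -1.03 ± 0.15 (2.05-fold lower, adjusted p = 0.000867), and both held with each array left out.

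Sdha, the flavoprotein that oxidises succinate, read 9.78, 9.80 and 9.78 in adult cells, against 10.10, 10.35 and 10.38 in adolescent cells. Adult replicate 1 did not stand apart from the other adult arrays for Sdha, unlike for most members. Its log2 difference was -0.49 ± 0.11 (adjusted p = 0.00959), lost without adolescent replicate 3. In aged cells Sdha read 9.82, 9.97 and 9.91, a log2 difference of -0.37 ± 0.11 from adolescent cells (adjusted p = 0.0324) that was lost without 5 of the 6 arrays in turn. Sdhb, the iron-sulfur subunit, fell by 0.54 ± 0.14 in adult cells, and its aged log2 difference from adolescent cells, -0.37 ± 0.14, did not pass (adjusted p = 0.0846). Sdhc, the other anchor, fell by 0.49 ± 0.16 in adult and by 0.49 ± 0.16 in aged cells against adolescent cells, and both calls were lost without most single arrays.

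In complex III all 8 members were negative in adult against adolescent and in aged against adolescent cells, but few passed with all arrays in the fit. Without adult replicate 1, 8 fell in adult and 5 in aged cells against adolescent cells. The calls below are those with all arrays. Uqcrc2, a core protein named here after its values were seen, was the one of 8 that fell in adult cells. It read 10.45, 10.17 and 10.11 in adult cells and 10.20, 10.00 and 9.95 in aged cells, against 10.77, 10.86 and 10.85 in adolescent cells. Neither group overlapped the adolescent arrays, and the log2 differences were -0.58 ± 0.11 (adjusted p = 0.003) for adult and -0.77 ± 0.11 (adjusted p = 0.000285) for aged cells. Uqcrc1, the other core protein, read 9.46, 9.16 and 9.23 in aged cells, against 10.17, 9.74 and 9.77 in adolescent cells, and fell by 0.61 ± 0.18 (adjusted p = 0.029). Without 4 of the 6 arrays in turn Uqcrc1 did not pass. Its adult log2 difference from adolescent cells was -0.48 ± 0.18 (adjusted p = 0.0751), and with the replicate number as a block it passed (adjusted p = 0.0279). Uqcrfs1, the Rieske iron-sulfur protein, read 8.07 on adult replicate 1, above every adolescent array, and 7.03 and 7.11 on adult replicates 2 and 3, against 7.88, 7.92 and 7.95 in adolescent cells. Its adult log2 difference from adolescent cells was -0.51 ± 0.23 and did not pass (adjusted p = 0.132).

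The 10 general subunits of complex IV had 4 falls in adult and 4 in aged cells against adolescent cells. Ndufa4, first described in complex I and since placed in complex IV, read 7.71, 8.03 and 8.12 in aged cells, against 9.12, 9.01 and 9.01 in adolescent cells. In adult cells it read 8.75 on replicate 1 and 7.49 and 7.41 on replicates 2 and 3. Every adult and aged array was below every adolescent array, with adult replicate 1 nearest to them. The aged log2 difference was -1.09 ± 0.27 (2.14-fold lower, adjusted p = 0.0124) and held with each array left out, and the adult one was -1.16 ± 0.27 (adjusted p = 0.0111) and was lost without adult replicate 2 or 3. Cox5a, a nuclear-encoded subunit of the enzyme, read 8.00, 8.28 and 8.40 in aged cells, against 9.45, 9.24 and 9.18 in adolescent cells. The groups did not overlap, and the log2 difference was -1.06 ± 0.19 (2.09-fold lower, adjusted p = 0.00162).

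Cox4i1, the general form of the largest nuclear-encoded subunit, was an exception among these genes. It read 9.11, 9.71 and 9.76 in fetal, 9.38, 9.68 and 9.75 in adolescent, 9.51, 9.61 and 9.58 in adult and 9.48, 9.74 and 9.67 in aged cells. The stages overlapped, and the log2 differences of the 5 comparisons lay between -0.03 and 0.08.

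Of the 7 tissue isoforms of complex IV, 0 fell in adult and 1 fell in aged cells against adolescent cells. That one was Cox7a1, which read 7.98, 7.84 and 7.76 in adolescent cells, against 6.51, 5.97 and 6.09 in fetal cells. The groups were far apart, and the log2 difference was 1.67 ± 0.28 (3.18-fold higher, adjusted p = 0.000956), which held with each array left out. In adult cells Cox7a1 read 7.93 on replicate 1, like the adolescent arrays, and 6.78 and 6.51 on replicates 2 and 3. The adult log2 difference from adolescent cells, -0.78 ± 0.28, did not pass (adjusted p = 0.0687), and without replicate 1 it was -1.21 (adjusted p = 0.00011). Aged cells read 6.77, 6.96 and 7.15, all below the adolescent arrays, for a log2 difference of -0.90 ± 0.28 (adjusted p = 0.0419) that was lost without any 1 of the 6 arrays. Adult cells were above fetal cells by 0.89 ± 0.28 (adjusted p = 0.0252), a call lost without fetal replicate 2 or 3. Its general partner Cox7a2 had log2 differences of -0.17 ± 0.24 in adolescent against fetal cells and -0.45 ± 0.24 in aged against adolescent cells, neither past the threshold, and fell by 0.73 ± 0.24 in adult against fetal cells (adjusted p = 0.0286).

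Cox8b, the muscle partner of the general form Cox8a, read 8.41 on fetal replicate 1 and 6.89 on fetal replicates 2 and 3, and 8.77, 8.18 and 8.22 in adolescent cells. It read 8.91 on adult replicate 1, 7.0 and 7.17 on adult replicates 2 and 3, and 8.31, 8.62 and 8.85 in aged cells. In fetal and adult cells replicate 1 was thus far above the other arrays, and no comparison of Cox8b passed. Without adult replicate 1 the aged log2 difference from adult cells was 1.5 (adjusted p = 0.011). Cox8a fell by 0.37 ± 0.13 in adult against fetal cells (adjusted p = 0.0366), and its aged log2 difference from adolescent cells was -0.38 ± 0.13 (adjusted p = 0.0598). Cox6a2, the muscle form beside Cox6a1, ranged from 6.78 to 8.05 over the 12 arrays, with its lowest and highest values on fetal replicate 3 and adult replicate 1, and passed in no comparison. Cox4i2 and Cox6b2, known from lung and testis, ranged from 6.14 to 6.70 and from 6.03 to 6.60 and passed in no comparison either. Cox6b1, the general form beside Cox6b2, fell by 0.57 ± 0.17 in adult against fetal cells (adjusted p = 0.0162), and Cox6a1 had a log2 difference of -0.51 ± 0.17 in adult against adolescent cells (adjusted p = 0.0509). Cox7b2, also known from testis, read 3.73 to 4.20, which is the level of the receptor probe sets.

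**Figure D5:**
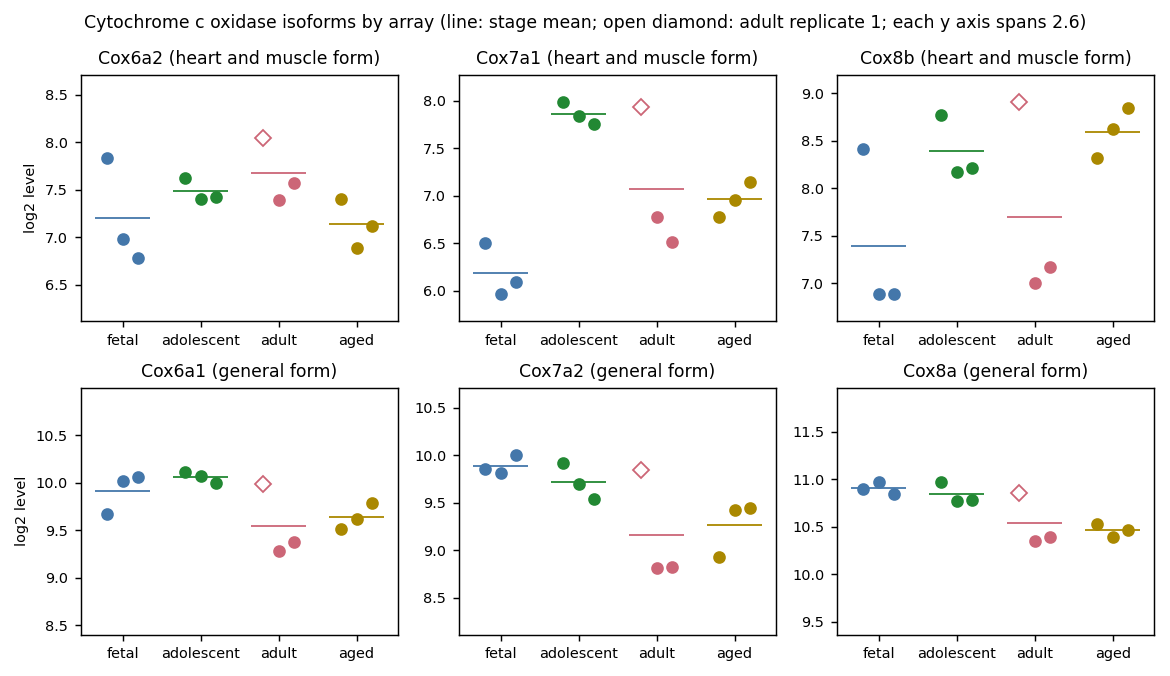
Each point is 1 array, in the order fetal, adolescent, adult and aged along the x axis, and the y axis is the log2 level, spanning the same width in each panel; lines are stage means and the open diamond is adult replicate 1. Muscle isoforms are in the upper row and their general partners below: Cox7a1 is higher on all 3 adolescent arrays (7.76 to 7.98) than on the fetal arrays (5.97 to 6.51), and Cox7a2 is not.

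Markers of myofibres, which express these isoforms, and of other cell types were read as well. Of all genes, 10.1% rose and 8.68% fell in adolescent against fetal cells. In adult against adolescent cells 4.56% rose and 15.2% fell, and without adult replicate 1 these shares were 25.4% and 28.6%. In aged against adolescent cells 8.08% rose and 11.5% fell. Of 30 myofibre markers, all measured, 11 rose and 7 fell in adolescent against fetal cells, 14 fell and 1 rose in adult against adolescent cells (25 fell without adult replicate 1), and 13 fell and 1 rose in aged against adolescent cells. The sum of their linear intensities was 18216 on fetal replicate 1, the fetal array with the highest Cox8b and Cox6a2, and 9713 and 9892 on fetal replicates 2 and 3. It ranged from 14052 to 17796 on adolescent, 8950 to 12024 on adult and 9752 to 10674 on aged arrays. Among the defining markers, the muscle actin Acta1 read 10.92, 9.17 and 9.25 on the fetal, 10.59, 10.96 and 10.90 on the adolescent, 10.29, 9.57 and 9.64 on the adult and 9.67, 9.60 and 9.62 on the aged arrays, so no array lacked it. The part of myofibre RNA in the isoform results was not tested. Of 15 endothelial markers, all measured, 14 rose in adolescent against fetal cells, 8 fell in adult against adolescent cells and 0 passed in aged against adolescent cells. Their summed linear intensity was 2229 to 3990 on fetal, 6312 to 9139 on adolescent, 4202 to 4712 on adult and 6918 to 9652 on aged arrays, and its part was not tested either. Of 14 fibroblast markers 4 rose and 5 fell in adolescent against fetal cells, and 5 fell and 1 rose both in adult and in aged cells against adolescent cells. Their sum ranged from 6486 to 9781 on fetal, 8054 to 9395 on adolescent, 8087 to 8317 on adult and 8968 to 9348 on aged arrays. Of 15 macrophage markers 0 passed in adult against adolescent cells and 2 rose in aged against adolescent cells (4 rose in each without adult replicate 1). The 4 in adult cells are near the share of all genes in that fit, 25.4%, and are not read as particular to these markers. Their sums were 1228 to 1303 on fetal, 1290 to 1829 on adolescent, 1142 to 1707 on adult and 1349 to 2408 on aged arrays. The part of these cell types was not tested.

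Cox7a2l, a relative of Cox7a2 that was not counted here among the known subunits, was the one member that rose in aged against adolescent cells. It read 8.32, 8.40 and 8.43 in aged cells, against 7.80, 7.96 and 8.04 in adolescent cells. The groups did not overlap, and the log2 difference was 0.45 ± 0.14 (adjusted p = 0.0329). The call was lost without 5 of the 6 arrays in turn, all but aged replicate 1, and a second, dimmer probe set of Cox7a2l gave 0.50 without passing (adjusted p = 0.153).

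ATP synthase has a catalytic head (F1), a rotor ring of c subunits and a stalk that holds the head in place. Of the 5 head genes 3 fell in adult and 4 in aged cells against adolescent cells. Atp5a1, the alpha subunit, read 10.11, 10.27 and 10.22 in aged cells and 10.39, 10.35 and 10.30 in adult cells, against 10.95 to 11.01 on the 3 adolescent arrays. All adult arrays, replicate 1 included, lay close together and below all adolescent arrays. The log2 differences were -0.78 ± 0.09 (adjusted p = 5.26e-05) for aged and -0.64 ± 0.09 (adjusted p = 0.000473) for adult cells, and both held with each array left out. Atp5b, the catalytic beta subunit, fell by 0.68 ± 0.14 in aged and by 0.52 ± 0.14 in adult cells against adolescent cells, the adult call being lost without adolescent replicate 1, adult replicate 2 or adult replicate 3.

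The 3 genes of the c ring encode the same mature protein. Atp5g3 read 9.70, 9.47 and 9.58 in aged cells, against 10.95, 10.43 and 10.45 in adolescent cells, with no overlap. Its log2 difference was -1.03 ± 0.27 (2.04-fold lower, adjusted p = 0.0168), lost without adolescent replicate 1, aged replicate 2 or aged replicate 3. Atp5g1 read 11.33 on adult replicate 1, above every other array, and 9.91 and 9.97 on adult replicates 2 and 3, below every other array. Atp5g1 passed in no comparison, and neither did Atp5g2, whose values lay between 11.13 and 11.65. Differences between the 3 genes were not tested.

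All 4 stalk genes fell in adult cells and 3 of them in aged cells against adolescent cells. Atp5o, which ties the stalk to the head, read 8.78, 8.86 and 8.81 in aged cells, against 10.11, 9.68 and 9.68 in adolescent cells and 10.09, 10.11 and 10.13 in fetal cells. Adult cells had 9.67 on replicate 1, level with adolescent replicates 2 and 3, and 8.40 and 8.47 on replicates 2 and 3. The aged log2 difference from adolescent cells was -1.0 ± 0.26 (2.0-fold lower, adjusted p = 0.0155) and the adult one -0.97 ± 0.26 (adjusted p = 0.0206). The adult call was lost without adolescent replicate 1, adult replicate 2 or adult replicate 3, and the aged one without adolescent replicate 1 or aged replicate 3. Of the small membrane subunits, Atp5mpl read 8.73, 8.69 and 8.85 in aged cells and 8.92, 8.66 and 8.62 in adult cells, against 9.40, 9.62 and 9.64 in adolescent cells. Neither group reached the adolescent arrays, and the log2 differences of -0.80 ± 0.14 (adjusted p = 0.00161) for aged and -0.82 ± 0.14 (adjusted p = 0.00206) for adult cells held with each array left out. Atp5md, another small membrane subunit, fell by 0.76 ± 0.20 in adult against adolescent cells (adjusted p = 0.0217), a call lost without 5 of the 6 arrays.

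Against adult cells, 0 of the 89 members passed in aged cells by limma, with 1 higher and 1 lower at an unadjusted p under 0.05, where 3.28% of all genes rose and 0.216% fell. The median log2 difference was 0.05 over the members and -0.01 over all genes. Without adult replicate 1, 28 members rose and 0 fell, beside 20.3% and 19.1% of all genes, and the median was 0.26. Bright genes had a like pattern in that fit. Of the 5125 with a mean of at least 8, 1742 rose and 109 fell, with a median of 0.22. Of the 2161 with a mean of at least 9, 622 rose and 44 fell, with a median of 0.18. These rises are thus not read as particular to the members. With the 3 arrays of raised receptor signal left out, and adult replicate 1 alone for the adults, 0 rose and 20 fell, beside 4.88% and 3.19% of all genes, and the median was -0.36. The sign of the median thus turned with the arrays used. Adult replicate 1 was above both adult replicates 2 and 3 for 84 members, with a median excess of 0.61 over their mean, and below every adolescent array for 39, inside the adolescent range for 31 and above it for 19. Adult replicates 2 and 3 lay below every adolescent array for 85 and 83 members. The widest gaps, 1.83 and 1.82 over the mean of replicates 2 and 3, were those of Ndufa1, an accessory subunit of complex I that read 7.39 on replicate 1 and 5.58 and 5.55 on the others, and of Cox8b. Ndufa3 read 8.30 on replicate 1 and 8.61 and 8.56 on replicates 2 and 3, the widest gap the other way, and was named like Ndufa1 after its values were seen.

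Proliferation markers were lower in adult and aged cells, as most members were, but they parted from the members between fetal and adolescent cells. In adolescent against fetal cells all 19 cycling genes were negative, with a median of -0.64, and 3 fell. The member median there was 0.00. All 19 cycling genes measured fell in adult and in aged cells against adolescent cells, and Mki67 read 7.38, 6.46 and 6.15 in aged cells and 9.28, 6.58 and 6.44 in adult cells, against 10.56, 10.54 and 10.55 in adolescent cells. The summed linear intensity of the list was 2155 to 3569 on aged arrays, 6842 on adult replicate 1, 2114 and 2113 on adult replicates 2 and 3, and 14783 to 17933 on adolescent arrays. Adult replicate 1 was thus between the adolescent and the other adult arrays in these genes. Its median over the members, 9.18, was instead level with that of adolescent replicate 3. The part of proliferation in the members' falls was not tested.

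Other genes of mitochondrial energy metabolism were read from lists chosen like the members with earlier results of these data known. Of all genes, 15.2% fell and 4.56% rose in adult, and 11.5% fell and 8.08% rose in aged cells against adolescent cells. Of 20 genes of the citric acid cycle, the pyruvate dehydrogenase complex and its kinases, 13 fell and 1 rose in adult, and 12 fell and 2 rose in aged cells against adolescent cells, with medians of -0.48 and -0.42. The 2 that rose in aged cells were the kinases Pdk1 (0.58 ± 0.15) and Pdk4 (0.79 ± 0.16), and the one that rose in adult cells was Pdk4 (0.54 ± 0.16). Idh3a, a catalytic subunit of NAD-dependent isocitrate dehydrogenase, read 8.27, 8.47 and 8.45 in aged cells and 8.91, 8.37 and 8.45 in adult cells, against 9.47, 9.79 and 9.75 in adolescent cells. Its groups did not overlap, with log2 differences of -1.27 ± 0.14 in aged and -1.10 ± 0.14 in adult cells, and Fh1, the fumarase, fell by 1.04 ± 0.14 in aged and by 1.0 ± 0.14 in adult cells. Of 39 assembly factors beyond the Ndufaf genes 19 fell in adult and 11 in aged cells against adolescent cells, and 0 rose. Foxred1, a complex I assembly factor, fell by 0.87 ± 0.11 in aged and by 0.65 ± 0.11 in adult cells. Of 21 genes for electron carriers, ubiquinone synthesis, ADP/ATP carriers and an uncoupling protein, with the complex III subunit Cyc1 among them, 7 fell in adult cells, and 6 fell and 1 rose in aged cells. Cytochrome c (Cycs) did not pass in either, at -0.68 ± 0.27 in adult and -0.56 ± 0.27 in aged cells, while citrate synthase (Cs) fell by 0.42 ± 0.10 in aged cells and had -0.27 ± 0.10 in adult cells (adjusted p = 0.0806).

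Of 24 regulators of mitochondrial biogenesis, 0 fell and 4 rose in aged against adolescent cells, 2 fell in adult against adolescent cells, and 9 fell and 1 rose in adult against fetal cells. These shares, 16.7%, 8.33% and 41.7%, lay below those of all genes past the threshold, 19.6%, 19.8% and 42.5%. With both directions pooled and all arrays in the fit, the list thus did not stand out. By direction, the 9 of 24 falls in adult against fetal cells stood beside 23.4% of all genes. Without adult replicate 1, 12 fell and 0 rose in adult against adolescent cells, beside 28.6% and 25.4% of all genes. In adult against fetal cells 14 fell and 1 rose, beside 29.9% and 35.1%. Of the 5125 genes with a mean of at least 8, 2848 and 2693 fell in that fit. A difference from genes of like brightness was not tested. The genes of the list are given singly. The coactivator Ppargc1a read 7.67, 7.63 and 7.38 in aged cells, against 7.58, 6.82 and 6.83 in adolescent cells, a log2 difference of 0.48 ± 0.29 that did not pass (adjusted p = 0.321), and fell by 1.04 ± 0.29 in adult against fetal cells. Nrf1, Gabpa, Esrra and Tfam, which act on promoters of respiratory chain genes or mitochondrial DNA, had aged log2 differences from adolescent cells of 0.08, -0.14, -0.28 and -0.12, and none passed there or in adult against adolescent cells. The 4 that rose in aged cells were Myc (0.80 ± 0.13), Polg2 (0.94 ± 0.19), Nrip1 (0.37 ± 0.09) and Esrrg (0.33 ± 0.09). The mitochondrial genome itself was read by COX2 and ND3, which encode subunits of complexes IV and I. COX2 read 12.27, 12.47 and 12.45 in adult cells, against 12.10, 11.86 and 12.07 in fetal cells, and ND3 read 11.71, 12.11 and 12.05 against 11.69, 11.27 and 11.59. Both rose, by 0.39 ± 0.10 and 0.44 ± 0.13, and with all arrays neither passed in aged or adult against adolescent cells. Without adult replicate 1 both rose in adult against adolescent cells, with a median log2 difference of 0.33, where 25.4% of all genes rose. Neither passed in aged against adolescent cells in that fit.

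Promoters of 4 members are shown because Ndufb6 and Sdhd had the largest falls in aged against adolescent cells, while Cox7a1 and Cox8b are the muscle isoforms with the widest range over the arrays among the tissue isoforms. The sequences are the 250 bases before the transcription start on the gene's strand, 5′ to 3′, from RefSeq on build GRCm38.p6, and capitals mark matches on either strand to the motifs of NRF1 (GCGC, any 1 base, TGCGC), ETS factors (CCGGAAG), YY1 (AAGATGGC), an E-box (CAGCTG) or MEF2 (CTA, any 4 bases, TAG). Ndufb6 lies at chr4:40279422-40279671 (minus strand), Sdhd at chr9:50603850-50604099 (minus strand), Cox7a1 at chr7:30183921-30184170 (plus strand) and Cox8b at chr7:140900447-140900696 (minus strand).
Ndufb6: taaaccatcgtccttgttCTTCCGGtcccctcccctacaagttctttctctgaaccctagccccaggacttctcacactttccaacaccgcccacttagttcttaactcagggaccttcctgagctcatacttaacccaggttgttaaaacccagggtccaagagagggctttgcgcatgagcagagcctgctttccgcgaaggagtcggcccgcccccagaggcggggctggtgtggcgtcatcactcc
Sdhd: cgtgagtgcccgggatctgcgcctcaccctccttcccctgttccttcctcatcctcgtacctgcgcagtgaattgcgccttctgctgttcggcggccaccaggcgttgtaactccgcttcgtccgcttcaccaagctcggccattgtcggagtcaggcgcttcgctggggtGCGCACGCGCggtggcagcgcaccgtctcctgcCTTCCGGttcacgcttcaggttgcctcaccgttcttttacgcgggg
Cox7a1: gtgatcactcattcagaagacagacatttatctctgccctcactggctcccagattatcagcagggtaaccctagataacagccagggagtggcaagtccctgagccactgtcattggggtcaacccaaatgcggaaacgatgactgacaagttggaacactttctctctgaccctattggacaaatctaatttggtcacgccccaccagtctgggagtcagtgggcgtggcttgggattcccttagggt
Cox8b: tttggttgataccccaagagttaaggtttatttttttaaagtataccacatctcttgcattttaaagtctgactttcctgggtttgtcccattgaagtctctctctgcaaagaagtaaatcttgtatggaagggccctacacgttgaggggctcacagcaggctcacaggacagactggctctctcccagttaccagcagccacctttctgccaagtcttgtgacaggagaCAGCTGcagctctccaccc

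Ndufb6 held 1 ETS match, Sdhd held an NRF1 and an ETS match, Cox8b held an E-box and Cox7a1 held none of the 5 motifs in this window. The same search in windows of 300 bases, which reach 50 bases past the start, covered 73 of the 89 members and 15614 of all measured genes. NRF1 matches were in 24.7% of members, against 7.85% of all measured genes with a window, and ETS matches in 24.7% against 13.6%. YY1 matches were in 13.7% against 3.77%, E-box matches in 8.22% against 18.4% and MEF2 matches in 2.74% against 4.15%. Base composition was not matched, overlapping motifs were each counted, and a match is a run of letters and not a measured site. Members with an NRF1 match had a median log2 difference of -0.48 in adult against adolescent cells and those without one -0.45. For ETS these medians were -0.46 with and -0.46 without a match, and for YY1, with 10 members holding a match, -0.65 with and -0.45 without one. These medians were not tested.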

How the data were processed

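Single-colour Affymetrix arrays measured RNA of sorted satellite cells at 4 stages with 3 arrays each. Per the labels' protocols, sorting gates were set by the age of the sample, with wild-type SV129 cells as a negative control for the reporter, and 100 ng of total RNA per replicate was amplified and labelled. The deposited values are log2 intensities that the authors made with RMA in Affymetrix Expression Console 1.2.1.20, per the submitters' processing notes. The genome build was not given in the sources used here. Array depth has no count, so the number of arrays limits the precision.

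Of 35556 probe sets, 21789 carried 1 gene symbol, 1621 several and 12146 none, by GEO's platform annotation. The brightest probe set stood for a gene with several. For the 17 members with several probe sets, 0 had probe sets called in opposite directions, although probe sets may read near-identical copies of a gene. Stages were compared with limma 3.58.1 in R 4.3.3, with 1 mean per stage over 12 arrays, 8 residual degrees of freedom, empirical Bayes variances and Benjamini-Hochberg adjustment over 19938 genes. There were 5 comparisons and an F-test. On simulated arrays for aged against adolescent cells with 200 of 19938 genes changed, the fit recovered 66 of 66 genes changed 4-fold, 54 of 67 changed 2-fold and 26 of 67 changed 1.5-fold, with 8 false calls.

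Members named are, per comparison, all that passed if 12 or fewer and otherwise the 10 with the largest differences, with a standing list of isoforms and core subunits. Of other lists, up to 4 genes with the smallest p were taken, with a few standing genes. Members and lists were chosen with earlier results of these data known. Same-numbered adult and adolescent arrays deviated together from their stage means over genes (correlations of 0.36, 0.32 and 0.24), although the labels state no pairing. Adolescent and fetal arrays had weaker positive correlations (0.18, 0.20 and 0.03). Aged arrays deviated the opposite way to adult arrays (-0.44, -0.39 and -0.24) and, less so, to adolescent arrays (-0.17, -0.18 and -0.03). Adult and fetal arrays had correlations of both signs (0.05, 0.27 and -0.22). Promoters are RefSeq windows on build GRCm38.p6. Alternatives covered the scaling, the probe sets, dim genes, variance settings, array weights, the replicate block, averaged replicates and arrays left out. Leaving out the 3 arrays with raised receptor signal together was chosen after seeing the data.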

Additional observations from a re-analysis of the deposited data

How the results depend on the processing

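In adult against adolescent, adult against fetal and aged against adolescent cells the median over the members stayed negative under every alternative run, but the counts did not hold. With array weights, whose estimation did not converge and gave aged replicate 3 a weight of 34.1 and adult replicate 1 one of 0.0648, 21 members passed in adolescent against fetal cells, 82 for adult against adolescent, 67 for aged against adult (median log2 difference 0.35), 82 in adult against fetal, 73 in aged against adolescent cells and 88 by the F-test. With replicates 2 and 3 averaged the counts were 1, 0, 0, 7, 5 and 7 in the same order. A fit of the 2 stages alone gave 4 members in adolescent against fetal and 14 in adult against adolescent cells. No share of all genes is given here for array weights or for fits of 2 stages. Their counts are therefore not read as a result about the members. Leaving out 1 array at a time gave 1 to 3, 14 to 73, 0 to 28, 32 to 75, 21 to 29 and 39 to 79 members. Without the 3 arrays of raised receptor signal, 4, 5, 20 and 21 members passed in the first 4 comparisons, and the medians were -0.053 for adult against adolescent cells, -0.36 for aged against adult cells and -0.071 for adult against fetal cells. Among known subunits 1 passed in adolescent against fetal cells, and with quantile normalization repeated 1 passed in aged against adult cells.

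With the replicate block 2, 37, 0, 48 and 36 members passed in the 5 comparisons and 47 by the F-test. The block moved no count by over 1.5 times and, in adult against adolescent cells, changed no named call but that of Uqcrc1. Centring each array on its median moved the median of all genes in adult against adolescent cells from 0.03 to 0.13, with 26 members past the threshold and a member median of -0.36. In aged against adult cells the differences of Cox7a1 and Atp5g1 turned positive with array weights, at 0.41 and 0.47, and those of Ndufa4 and Sdhc turned to -0.68 and -0.51 without the 3 arrays of raised receptor signal. That setting also gave 0.16 for Ndufa2 and 0.64 for Atp5g1 in adult against fetal cells. The cause of these changes was not tested, beyond the smaller number of arrays where arrays were left out or averaged.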

Other observations

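Of the 21 genes for electron carriers, ubiquinone synthesis, ADP/ATP carriers and an uncoupling protein, 3 rose and 0 fell in adolescent against fetal cells. Their share past the threshold, 14.3%, lay below that of all genes, 18.8%, so the list as a whole did not stand out, and the 3 are given as single genes. Coq8a, an atypical kinase needed for ubiquinone synthesis, read 8.22, 8.62 and 8.65 in adolescent cells, against 7.11, 6.82 and 6.85 in fetal cells. The groups did not overlap, and the log2 difference was 1.57 ± 0.12 (SE, limma adjusted p = 1.51e-06). The ubiquinone-binding Coq10a and Coq10b rose by 0.99 ± 0.11 and 0.77 ± 0.19.

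The pyruvate dehydrogenase kinases, which switch off entry of pyruvate into the citric acid cycle, changed in both directions. Pdk1 read 6.46, 6.33 and 6.58 in adolescent cells, against 7.88, 7.59 and 7.76 in fetal cells, a log2 difference of -1.29 ± 0.15 (adjusted p = 3.55e-05). In aged cells it read 6.69, 7.18 and 7.25, above every adolescent array, and rose by 0.58 ± 0.15 (adjusted p = 0.013). Pdk4, known as induced by fasting and fatty acids, read 10.11, 9.59 and 9.50 in aged cells, against 9.10, 8.82 and 8.90 in adolescent cells and 8.49, 8.09 and 8.10 in fetal cells. It rose in adolescent against fetal cells by 0.71 ± 0.16 and in aged against adolescent cells by 0.79 ± 0.16. Pdk3 had the largest fall of the list in adult against fetal cells, at -2.11 ± 0.28, with 7.14 on adult replicate 1 and 5.81 and 5.77 on adult replicates 2 and 3, against 8.24, 8.37 and 8.44 in fetal cells. Whether these changes and those of the subunits are linked was not tested.

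Suclg2, the GTP-forming subunit of succinyl-CoA ligase, was the one gene of its list of 20 that rose in aged against adult cells. It read 8.42, 8.64 and 8.52 in aged cells, against 8.24, 7.85 and 7.74 in adult cells, a log2 difference of 0.59 ± 0.14 (adjusted p = 0.042).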
